A study of Mus musculus with 57 samples.

Results

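The comparison described here set 9 colon tumors against 10 untreated colon samples, all from mice that lack the insulin receptor gene Insr in the intestinal epithelium, and covered 22180 genes. Its 19 samples were chosen by genotype and treatment from the 57 arrays of the series, and every gene with a probe set of a single symbol was included, read from its brightest probe set. All mice were adult C57BL/6 females of 18 to 24 weeks, and RNA came from distal colon. The knockout mice, labelled villin-CRE-INSR-/-, carry a Cre recombinase driven by the villin promoter, which is active in intestinal epithelium, so immune cells, fibroblasts, muscle, vessels and nerves in the same tissue keep an intact Insr. The tumors had been induced with azoxymethane (AOM, a carcinogen that mutates colon epithelium), injected at 7.4 mg per kg, and with 1 cycle of 3% dextran sulfate sodium (DSS, which injures the mucosa) in the drinking water for 7 days in week 2, with tissue taken in week 5. Untreated knockout mice received neither agent. Further arrays of the series were used beside the main comparison: colon of knockout mice after AOM and DSS (10 samples), and tumors (8 samples) and untreated colon (10 samples) of INSRfl/fl littermates, whose Insr carries the loxP sites without Cre. Samples are labelled as biological replicates, and p-values measure the spread between these samples. Tumors and untreated colon came from different mice by treatment. Whether any mouse gave both a tumor and an AOM and DSS colon sample is not stated.

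In the normal colon, Wnt signals at the crypt base keep stem cells dividing, and cells that leave the crypt turn into absorptive colonocytes, mucus-making goblet cells, hormone-making enteroendocrine cells and chemosensory tuft cells. Mutations that fix beta-catenin in its active state are a usual first step in AOM-induced tumors, and active beta-catenin with TCF/LEF factors switches on both growth genes and a set of secreted and membrane proteins that normally dampen the pathway. The insulin receptor and the related IGF-1 receptor pass signals through the adaptors IRS1 and IRS2 to the kinase AKT, which keeps FOXO transcription factors out of the nucleus. RNA of whole tissue mixes all these cells, and fewer cells of a type cannot be told apart from less RNA per cell.

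Values are log2 expression levels made by the authors with RMA, which forces all arrays to a common distribution, so a shift of RNA content in a whole array cannot be seen. The median level over the genes ran from 6.51 to 6.65 on the 19 arrays. Epcam, an adhesion protein of all epithelial cells, lay between 11.67 and 12.13 on every array, and Cdh1 (E-cadherin) between 12.08 and 12.43. Each array was correlated, across genes, with the rest of its group, and the average r per array ran from 0.982 (untreated replicate 2) to 0.991. That array had high goblet, tuft and enteroendocrine levels, tumor replicate 6 had high squamous epithelium levels and low colonocyte transporter levels, and untreated replicate 5 had high interferon-response levels. Leaving out tumor replicate 6 and untreated replicate 2 gave 9931 changed genes in place of 10486. Among the groups below it changed counts by more than 1.5 times for interferon-gamma response genes (3 rose in place of 5), for the few pan-epithelial and enteroendocrine genes that rose (1 in place of 2 each), for proteases that fell (2 in place of 1) and for sterol synthesis genes that fell (1 in place of 2), and 1 transport gene rose in place of 0. The tissues also differed in muscle: the mean of 14 smooth muscle genes lay between 8.28 and 9.66 in the tumors and between 10.59 and 10.96 in untreated colon, with no overlap. Its part in the results was not tested beyond a fit with that mean as a covariate, whose counts stand with each group where they differ by more than 1.5 times. Of the 462 called genes that were listed or named here, 216 kept their call in that fit, 245 lost it and 1 turned to the other direction, while leaving out the 2 arrays lost 19 of the 462.

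Insr itself was lower in the tumors than in the untreated colon of the knockout mice, although both tissues carry the deletion. Its level ran from 7.17 to 8.35 in the tumors with a median of 7.38, and from 7.74 to 8.29 in untreated colon with a median of 8.04. Of the 9 tumors, 7 lay below all 10 untreated samples and 1, replicate 8, lay above them all. The change was -0.51 ± 0.10 (log2, SE), or 1.43-fold, with an adjusted p of 2.05e-05 in limma and p = 0.0016 in a two-sided exact permutation test over 92378 arrangements (0.0032 adjusted over 4 genes). Among genotypes, the mean was 8.98 ± 0.16 (SD, n = 10) in untreated fl/fl colon and 8.04 ± 0.16 (SD, n = 10) in untreated knockout colon, and 8.18 ± 0.23 (SD, n = 8) in fl/fl tumors and 7.53 ± 0.36 (SD, n = 9) in knockout tumors. Knockout tumors differed from fl/fl tumors by -0.65 ± 0.11 (adjusted p = 0.00234), and Insr was 1 of the 2 genes called between them, both lower (0.00902% of those tested). The other was the predicted model Gm17250, named after its values were seen. The probe table does not say which part of Insr is read, and the remaining signal also holds RNA of cells that keep the gene. In the fit with the smooth muscle mean as a covariate, the tumor change in Insr was -0.16 (adjusted p = 0.763).

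The tumors differed from untreated knockout colon in 10486 of 22180 genes at an adjusted p under 0.05, which is 47.3% of those tested. Of these, 5233 were higher (23.6%) and 5253 lower (23.7%), and the median change over all genes was -0.035. A rise of at least 2-fold was found for 668 genes (3.01%) and a fall of at least 2-fold for 753 (3.39%). All 9 tumors lay above all 10 untreated samples for 2229 genes (10.0%) and below them for 1763 (7.95%). With this many genes changed, the counts of the gene groups below are read against 23.6% and 23.7%. With the smooth muscle mean as a covariate, 2547 genes passed, 1349 higher and 1198 lower. Group counts from that fit are read against these numbers out of 22180. Of the 2547 genes, 2446 were called the same way without the covariate, and 983 of the 1421 genes with 2-fold changes kept their call (69.2%). The median standard error was then 0.186 in place of 0.0833.

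**Figure D1:**
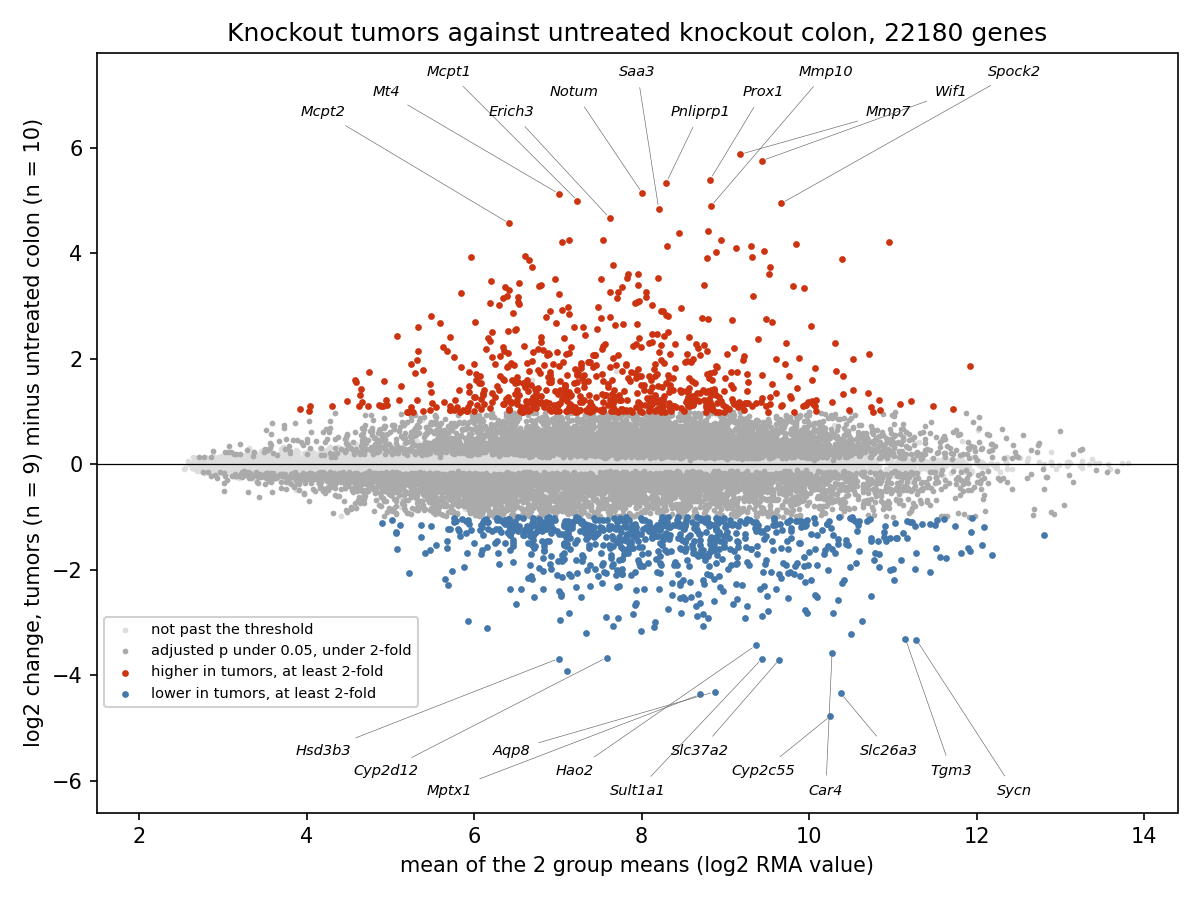
Each point is 1 of the 22180 genes, with its mean log2 level in the knockout tumors (n = 9) and untreated knockout colon (n = 10) on the x axis and the tumor minus untreated log2 change on the y axis. The 12 largest named rises, from Mcpt2 at 4.57 to Mmp7 at 5.88, and the 12 largest named falls, from Tgm3 at -3.30 to Cyp2c55 at -4.77, are labelled, and predicted gene models are drawn without names.

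The 12 largest named rises included genes of the Wnt pathway, matrix proteases and mast cell proteases. Pnliprp1, Mt4, Spock2, Saa3 and Erich3, described below, were also among them. Wif1, a secreted protein that binds Wnt ligands, ran from 11.83 to 12.66 in the tumors (median 12.37) against 6.35 to 6.80 in untreated colon (median 6.54), so every tumor lay far above every untreated sample. Its change was 5.76 ± 0.14 (log2, SE), 54.2-fold, with an adjusted p of 3.06e-40. Notum, an enzyme that strips the lipid from Wnt ligands and so inactivates them, had the smallest adjusted p of the named genes. It ran from 10.15 to 10.94 in the tumors (median 10.66) and from 5.21 to 5.74 in untreated colon (median 5.42). The groups did not overlap, and the change was 5.14 ± 0.11 (35.3-fold, adjusted p = 1.77e-42). Prox1, a homeobox factor found in lymphatic endothelium and induced by Wnt signals in colon tumors, ran from 11.27 to 11.72 against 5.59 to 6.52 and changed by 5.40 ± 0.14.

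Of 16 measured negative regulators of Wnt signalling, 10 rose and 5 fell, with a median change of 0.93. Beside Wif1 and Notum, the rises were Apcdd1 (3.91), a membrane protein that binds Wnt, Dkk2 (3.54), a ligand of the Wnt co-receptor, Nkd1 (3.20), which acts on Dishevelled, Axin2 (2.30), part of the complex that destroys beta-catenin, the ubiquitin ligases Rnf43 (1.83) and Znrf3 (1.43) that remove Wnt receptors, Dkk3 (0.43) and Frzb (0.33). Axin2, the usual readout of the pathway, ran from 10.48 to 11.24 in tumors (median 10.86) and from 8.24 to 8.86 in untreated colon (median 8.56), again without overlap. The 5 that fell were secreted antagonists: Sfrp2 (-0.77), Sfrp5 (-0.75), Sostdc1 (-0.75), Sfrp4 (-0.72) and Sfrp1 (-0.54). With the smooth muscle covariate, none of these 5 fell, and Sfrp4 turned to a rise of 1.72 (adjusted p = 0.00788), while Frzb no longer passed (0.45, adjusted p = 0.355) and the other 9 rises did. Frzb also did not pass without the 2 arrays named above (0.24, adjusted p = 0.0842). Shisa2 did not pass (0.05, adjusted p = 0.777). The mean of the 16 genes lay between 8.91 and 9.37 in the tumors and between 7.50 and 7.69 in untreated colon, so the tumors varied little among themselves in this group.

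Genes that Wnt signals activate and markers of crypt stem cells rose in 15 of 19 measured cases and fell in 2, with a median change of 0.80. Lgr5, the R-spondin receptor that marks crypt stem cells, ran from 10.21 to 10.86 in the tumors (median 10.44) and from 7.48 to 8.04 in untreated colon (median 7.73). Its groups did not overlap, and it changed by 2.74 ± 0.13, or 6.69-fold (adjusted p = 3.61e-25). The transcription factor Lef1 rose by 2.39 ± 0.10, the TNF-receptor family member Tnfrsf19 by 1.98 ± 0.094, the matricellular stem cell marker Smoc2 by 1.75 ± 0.097, the hyaluronan receptor Cd44 by 1.76 ± 0.14, the zinc-finger factor Sp5 by 1.65 ± 0.12 and the stem cell regulator Ascl2 by 1.39 ± 0.12. Growth genes under Wnt control moved less: Ccnd1 (cyclin D1) rose by 0.95 ± 0.083 and Myc by 0.80 ± 0.097, each with all 9 tumors above all untreated samples. Rgmb, a BMP co-receptor, fell by 0.86 on the log2 scale, and Lrig1, a brake on ErbB receptors that marks a slower stem cell, fell by 0.58. With the muscle covariate 14 of the group rose, and Lrig1 fell while Rgmb did not pass (-0.46, adjusted p = 0.0564). Olfm4, whose levels scattered from 5.09 to 8.59 in the tumors and from 4.84 to 8.17 in untreated colon, had a change of -0.12 (adjusted p = 0.883).

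The promoters of these genes were read for the TCF/LEF motif, spelled CTTTGAT or CTTTGTT on either strand, from 250 bases before to 50 bases after the start in RefSeq's GRCm38.p6 annotation. The motif stood in 3066 of 32851 promoters (9.33%). None of the 10 promoters found for 9 of the Wnt negative regulators held it, 2 of the 19 promoters of 12 Wnt target genes did (10.5%), and 3 of the 12 promoters of 10 of the most increased genes did (25%). Counted by gene, 2 of those 10 held it (20%), Mmp7 and Erich3, against 10.6% of all genes, since 2 of the 3 promoters are overlapping Mmp7 windows with the same match. Sp5 and Tnfrsf19, the Wnt targets with a match, and Mmp7, the gene with the largest rise, are shown with the motif in capitals. Sp5 holds 2 matches, and Tnfrsf19 holds 1 in 1 of its annotated promoters. The Mmp7 match lies just after the transcription start, near the end of the window shown.
Sp5 promoter, chr2:70474673-70474972, plus strand: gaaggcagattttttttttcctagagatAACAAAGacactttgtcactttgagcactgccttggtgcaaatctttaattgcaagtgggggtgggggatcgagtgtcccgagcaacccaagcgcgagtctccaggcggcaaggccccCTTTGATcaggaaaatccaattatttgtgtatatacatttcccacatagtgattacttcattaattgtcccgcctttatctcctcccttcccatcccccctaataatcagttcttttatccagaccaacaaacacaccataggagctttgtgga
Tnfrsf19 promoter, chr14:61037938-61038237, minus strand: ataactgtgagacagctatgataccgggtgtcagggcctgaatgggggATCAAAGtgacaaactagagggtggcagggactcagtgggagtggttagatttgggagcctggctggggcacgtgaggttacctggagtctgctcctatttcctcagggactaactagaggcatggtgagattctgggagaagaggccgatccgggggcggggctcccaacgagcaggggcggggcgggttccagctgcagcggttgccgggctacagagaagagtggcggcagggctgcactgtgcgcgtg
Mmp7 promoter, chr9:7691840-7692139, plus strand: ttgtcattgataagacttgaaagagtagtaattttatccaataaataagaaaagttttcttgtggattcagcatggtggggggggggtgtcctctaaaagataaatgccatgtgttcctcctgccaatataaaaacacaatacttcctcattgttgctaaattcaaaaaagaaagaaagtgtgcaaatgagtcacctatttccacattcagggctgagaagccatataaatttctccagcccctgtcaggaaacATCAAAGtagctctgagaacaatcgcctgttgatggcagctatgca
A match describes these letters and is not evidence of binding. No binding data were used here.

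Matrix proteases and their inhibitors rose in 11 of 14 measured cases and fell in 1, with a median change of 1.61. Mmp7 (matrilysin), a protease made by epithelial and tumor cells, ran from 11.74 to 12.40 in the tumors (median 12.22) against 5.51 to 7.63 in untreated colon (median 6.14). Its change of 5.88 ± 0.25, 58.7-fold (adjusted p = 2.13e-27), was the largest rise of any named gene, and the groups did not overlap. The stromelysin Mmp10 rose by 4.90 ± 0.22, the collagenase Mmp13 by 4.10 ± 0.27, the macrophage elastase Mmp12 by 3.41 ± 0.17 and the gelatinase Mmp9 by 2.77 ± 0.21, each with all 9 tumors above all 10 untreated samples. Timp1, which inhibits these enzymes, rose by 1.61 ± 0.13, whereas Timp2 fell by 0.32 on the log2 scale. The muscle covariate left 9 rises of the group and no fall, with Timp2 at 0.15 and not past the threshold. Spock2, a matrix proteoglycan, stood among the 12 largest rises, at 11.86 to 12.49 in tumors against 7.01 to 7.57 in untreated colon (4.95 ± 0.12).

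Genes linked to regenerating and fetal-like epithelium rose in 11 of 12 measured cases and fell in none, with a median change of 1.12. Clu (clusterin), a secreted chaperone that marks revival stem cells after injury, ran from 10.46 to 10.83 in tumors and from 8.39 to 9.52 in untreated colon, and rose by 1.91 ± 0.13. Ly6d, a GPI-anchored surface protein, rose by 2.29 ± 0.29, the urokinase receptor Plaur by 1.72 ± 0.14, the alarmin Il33 by 1.69 ± 0.18 and the EGF-receptor ligand Ereg by 1.42 ± 0.27. Ccn2, a target of the injury-sensing YAP pathway, did not pass (0.06, adjusted p = 0.691). In the fit with the muscle covariate, 7 of the 12 rose.

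RNA of antimicrobial proteins typical of Paneth cells, which live in the small intestine and are not a regular part of the mouse colon, rose in part. No protein was measured. Lyz1 (lysozyme of Paneth cells) ran from 12.56 to 13.35 in the tumors with a median of 13.11, and from 7.37 to 10.50 in untreated colon with a median of 8.54. The groups did not overlap, the untreated samples spread more widely than the tumors, and the change was 4.22 ± 0.34 (adjusted p = 4.77e-16). The secreted phospholipase Pla2g2a rose by 4.18 ± 0.25, the lectin Itln1 by 3.74 ± 0.45, the lectin Reg3g by 3.41 ± 0.66 and the alpha-defensin Defa24 by 3.39 ± 0.53. Defensin genes are near-identical copies that array probes may not separate. In all, 7 of 15 measured members rose and 1 fell, the faller being Mptx1 (-4.36 ± 0.34), a mucosal pentraxin that ran from 5.22 to 7.72 in tumors against 10.15 to 11.82 in untreated colon. Among members that did not pass, Retnlb, a goblet cell antimicrobial protein, ran from 5.02 to 12.41 in untreated colon and had a change of 0.19 (adjusted p = 0.833). The muscle covariate left 3 rises and 1 fall. Pnliprp1, a lipase-related protein best known from the pancreas, ran from 10.27 to 11.46 in tumors and from 5.36 to 5.90 in untreated colon (5.34 ± 0.15), and its relative Pnliprp2 ran from 10.59 to 12.33 against 6.73 to 11.31 (4.05 ± 0.31). The metallothionein Mt4 and Erich3 were also among the 12 largest rises, at 5.13 ± 0.29 and 4.67 ± 0.15.

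Genes of DNA replication and mitosis rose in 23 of 24 measured cases and fell in none, with a median change of 0.83. Top2a, the topoisomerase of dividing cells, ran from 10.02 to 10.59 in tumors (median 10.22) and from 8.45 to 9.72 in untreated colon (median 9.07), without overlap. It changed by 1.13 ± 0.14, or 2.19-fold (adjusted p = 4.54e-10). Gins1, part of the replicative helicase, rose by 1.23 ± 0.12, and the proliferation marker Mki67 by 0.48 ± 0.11, with 5 of 9 tumors above all untreated samples. Tyms, which makes thymidylate, did not pass (0.07, adjusted p = 0.511). All 19 measured ribosome biogenesis genes rose, none by 2-fold, with a median of 0.49, among them the nucleolar proteins Gnl3 (0.91 ± 0.12) and Wdr43 (0.86 ± 0.077). Both groups were called less often with the smooth muscle covariate, in which calls over all genes dropped from 10486 to 2547. It left 0 of the 24 mitosis genes and 2 of the 19 ribosome genes past the threshold, with medians of 0.36 and 0.24.

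**Figure D2:**
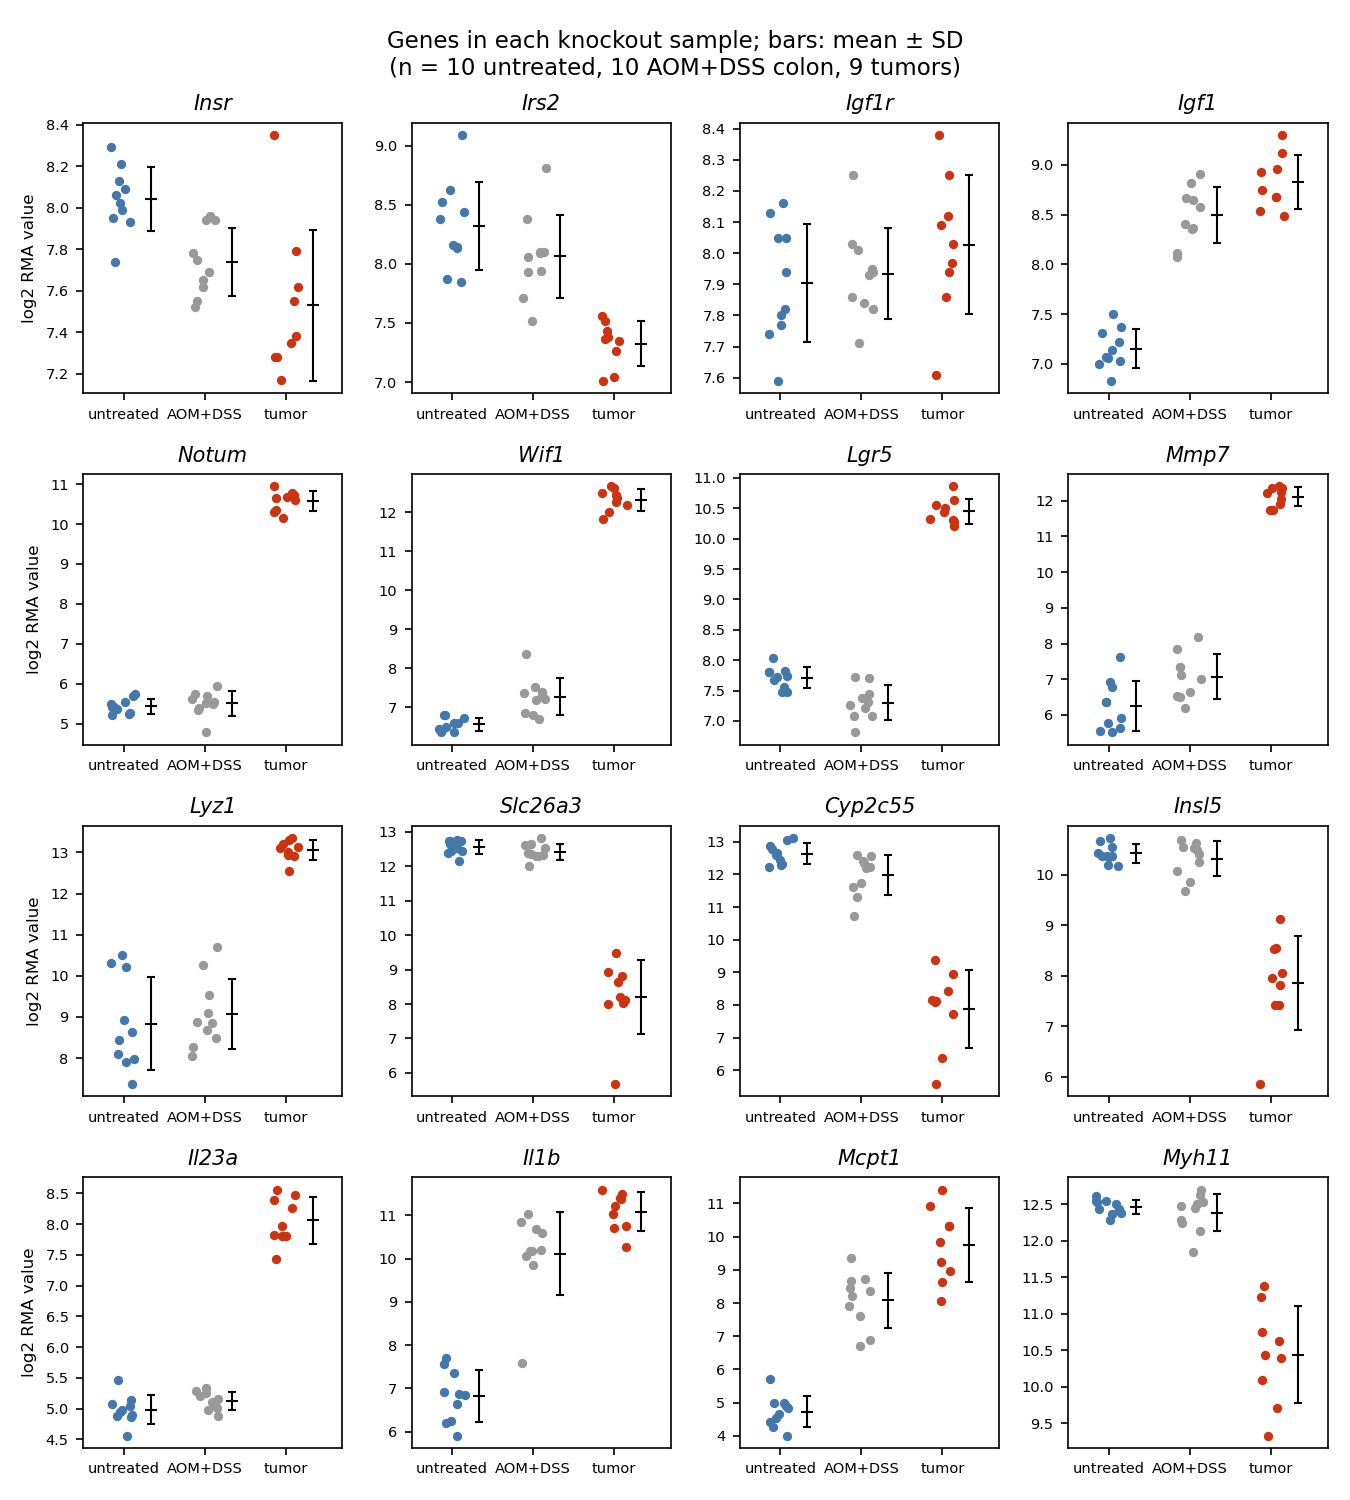
Each panel plots the log2 RMA value of 1 gene in every knockout sample, with untreated colon (n = 10) in blue, AOM and DSS colon (n = 10) in grey and tumors (n = 9) in red, and bars of mean ± SD. Notum, Wif1, Lgr5, Mmp7, Lyz1 and Il23a were high in the tumors and changed by less than 1 on the log2 scale in AOM and DSS colon, whereas Igf1, Il1b and Mcpt1 were also raised there, and Slc26a3, Cyp2c55, Insl5 and Myh11 were low in the tumors.

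Most measured genes of ion and water transport were low in the tumors. Slc26a3, the chloride-bicarbonate exchanger of the colon, ran from 5.68 to 9.49 in the tumors with a median of 8.19, and from 12.16 to 12.76 in untreated colon with a median of 12.57. Every tumor lay below every untreated sample, tumor replicate 6 lowest, and the change was -4.34 ± 0.29, or 20.3-fold (adjusted p = 2.79e-19). The water channel Aqp8 ran from 5.36 to 7.47 against 10.91 to 11.21, and changed by -4.31 ± 0.22. Membrane carbonic anhydrase Car4 ran from 6.51 to 9.68 against 11.89 to 12.25 and changed by -3.57 ± 0.25. Of 22 measured genes of ion and water transport, 19 fell and none rose, with a median of -1.72, and 18 of them fell at least 2-fold. These included the sodium-proton exchanger Slc9a2 (-2.68), the magnesium channel Trpm6 (-2.55), the sulfate transporter Slc26a2 (-2.52), the chloride channel Cftr (-1.85) and the alpha subunit of the epithelial sodium channel, Scnn1a (-1.66). The exchanger Slc9a3 had a change of 0.74 in the other direction, which did not pass (adjusted p = 0.0503), and passed without the 2 arrays (1.04, adjusted p = 0.00583). With the muscle covariate 16 transport genes fell.

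Detoxifying and steroid-metabolising enzymes fell in 20 of 23 measured cases and rose in none, with a median change of -1.82. Cyp2c55, a cytochrome P450 of the colon, had the largest fall of the named genes. It ran from 5.58 to 9.37 in tumors (median 8.11) and from 12.24 to 13.11 in untreated colon (median 12.62), a change of -4.77 ± 0.38 or 27.3-fold (adjusted p = 2.55e-16), with no overlap between groups. The sulfotransferase Sult1a1 fell by 3.69 on the log2 scale, the steroid dehydrogenase Hsd3b3 by 3.68, the cytochrome P450 Cyp2d12 by 3.66, the peroxisomal oxidase Hao2 by 3.43 and the drug efflux pump Abcb1a by 2.96. Nr1i2 (PXR), the nuclear receptor that switches on several such genes, fell by 1.45 ± 0.11, with all 9 tumors below all untreated samples. The other named genes with the largest falls were the sugar phosphate exchanger Slc37a2 (-3.70), the secretory granule protein Sycn (-3.32) and the transglutaminase Tgm3 (-3.30).

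Genes of colonocyte differentiation fell in 13 of 18 measured cases and rose in none, with a median of -0.92. Guca2a (guanylin), a peptide that regulates fluid secretion, fell by 2.19 ± 0.17 on the log2 scale, the differentiation factor Klf4 by 1.91 ± 0.11 and the keratin Krt20 by 0.93 ± 0.12. Of 18 transcription factors of colon identity and gut position, 11 fell and none rose (median -0.68). Vdr, the vitamin D receptor, ran from 9.44 to 10.37 in the tumors (median 9.79) and from 11.62 to 12.05 in untreated colon (median 11.81). It fell by 1.94 ± 0.10 (adjusted p = 4.68e-24) without overlap, and the gut homeobox factors Cdx1 and Cdx2 fell by 1.28 ± 0.11 and 1.27 ± 0.22 and the nuclear receptor Hnf4a by 0.76 ± 0.068. Genes shared by all epithelial cells stayed close to their untreated level: of 10 measured, 2 rose and 6 fell, none by 2-fold, with a median of -0.26. Among them Epcam rose by 0.14 ± 0.051 and Krt18 by 0.46 ± 0.093, and Cdh1 did not pass (-0.05, adjusted p = 0.435). Epcam did not pass without the 2 arrays (0.12, adjusted p = 0.0591) or with the muscle covariate (0.18, adjusted p = 0.36). That covariate left falls in 7 differentiation genes and 7 identity genes, a rise in 1 identity gene, Hoxd12 (1.86, adjusted p = 0.0234, named after its value was seen), and no pan-epithelial gene called either way.

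Most products of enteroendocrine and goblet cells fell as well. Enteroendocrine products fell in 15 of 17 measured cases and rose in 2, with a median of -1.10. Insl5, a hormone of the distal colon, ran from 5.86 to 9.13 in tumors (median 7.95) and from 10.17 to 10.72 in untreated colon (median 10.37), without overlap, and fell by 2.56 ± 0.25 (adjusted p = 5.45e-13). Proglucagon (Gcg) fell by 2.52 ± 0.17, somatostatin (Sst) fell by 2.17 ± 0.17, peptide YY (Pyy) by 1.91 ± 0.15 and the granule protein Chga by 1.69 ± 0.14, whereas the endocrine factor Isl1 rose by 0.68 ± 0.21 and neurotensin (Nts) by 0.66 ± 0.14. Isl1 did not pass without the 2 arrays (0.42, adjusted p = 0.0832). Goblet cell products fell in 12 of 18 cases and rose in 3, with a smaller median of -0.41. Muc2, the main mucin of colon mucus, fell by 0.20 ± 0.082, from 12.99 to 13.72 in untreated colon to 12.50 to 13.31 in tumors, and these ranges overlap. Without the 2 arrays Muc2 did not pass (-0.08, adjusted p = 0.425). Atoh1, the factor that sets the secretory fate, fell by 1.48 ± 0.13, the mucus protein Fcgbp by 1.29 ± 0.14 and Clca1 by 0.96 ± 0.13. Muc6, a gel-forming mucin of the stomach, rose by 2.22 ± 0.20, with all tumors above all untreated samples. Of 11 tuft cell genes, 7 fell and 1 rose (median -0.44). The mean of these genes ran from 5.96 to 6.07 in tumors and from 5.86 to 7.05 in untreated colon, overlapping ranges. Dclk1, a kinase widely used as a tuft cell marker, fell by 0.71 ± 0.10, while Avil (advillin), an actin-binding protein of tuft cells, ran from 9.05 to 9.95 in tumors against 6.06 to 7.35 and rose by 3.08 ± 0.13. In the fit with the muscle covariate, 12 enteroendocrine, 8 goblet and 2 tuft genes fell, and 1 of each rose, namely Isl1, Muc6 and Avil.

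**Figure D3:**
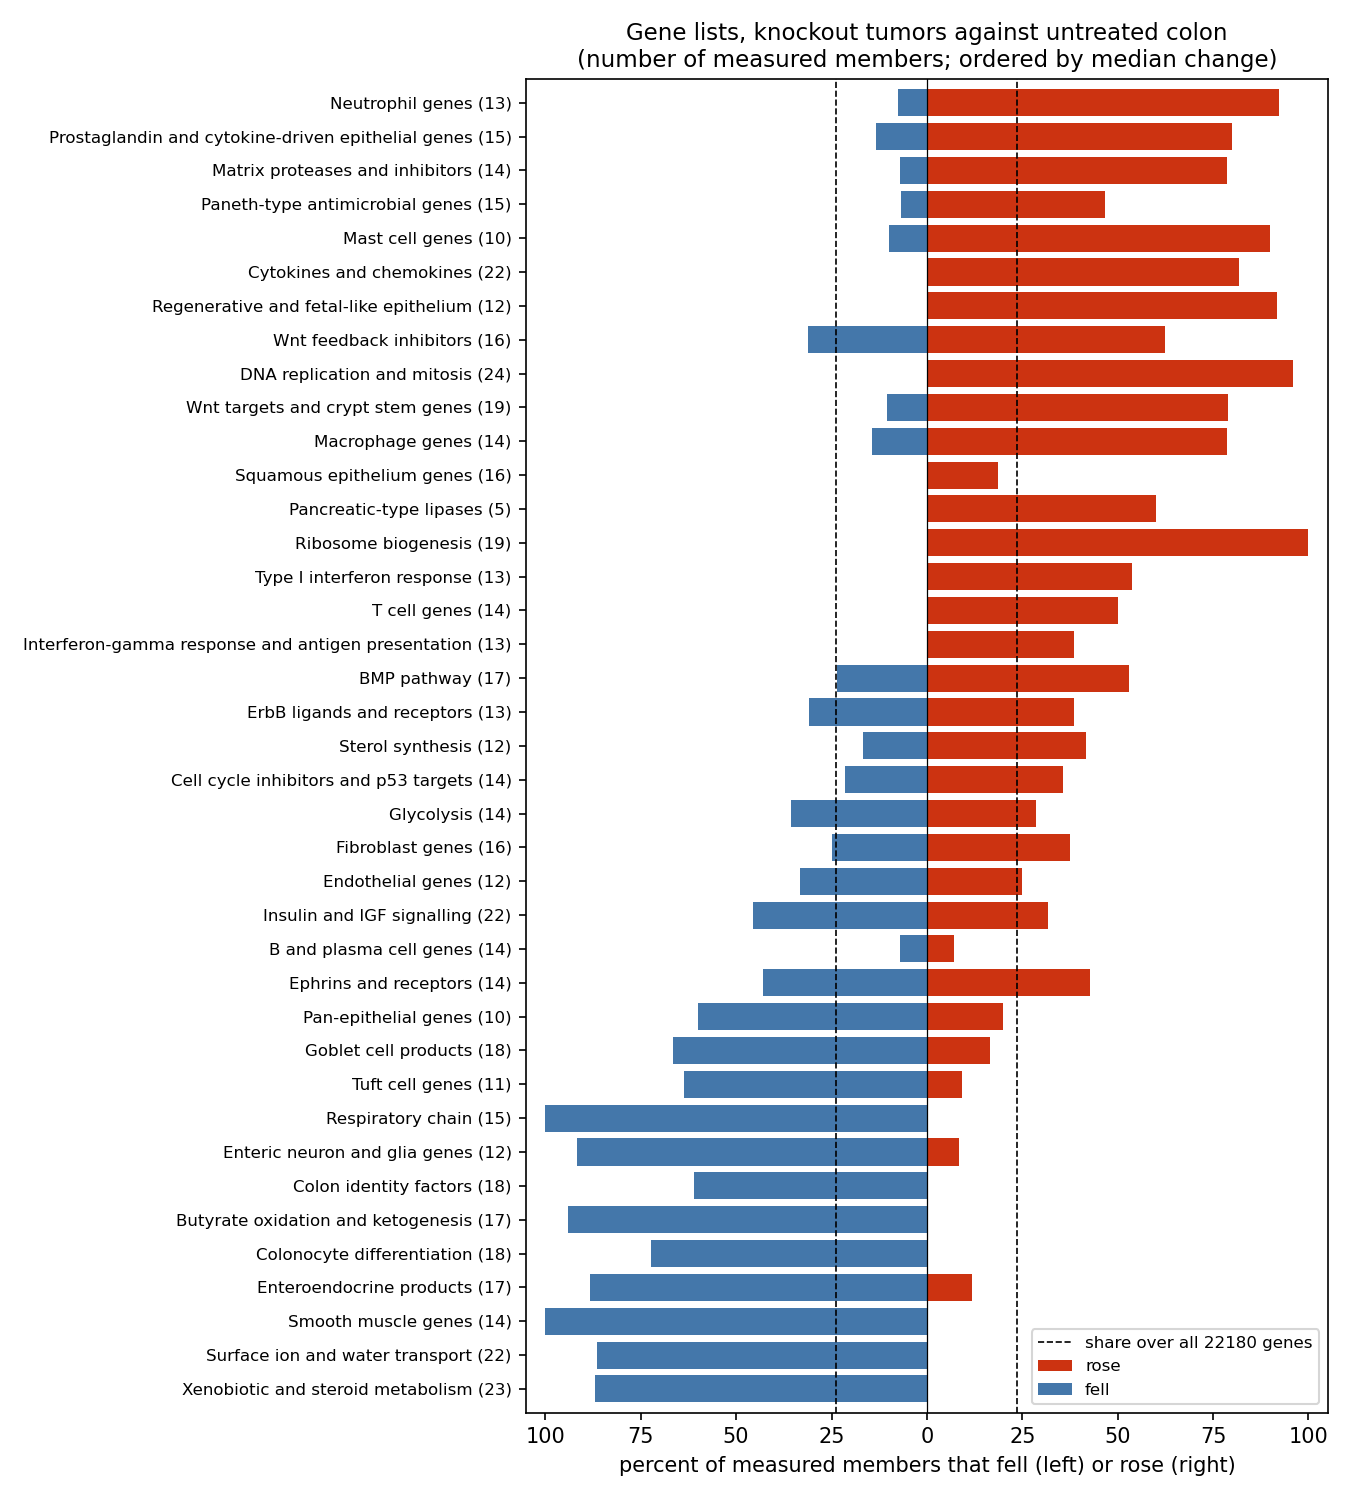
For each of 39 gene lists (number of measured members in brackets), bars show the percent of members that rose (red, right) or fell (blue, left) in knockout tumors against untreated knockout colon at an adjusted p under 0.05, ordered by the median log2 change. Dashed lines mark the shares over all 22180 genes, 23.6% for rises and 23.7% for falls, and neutrophil genes stand at the top with 12 of 13 risen and xenobiotic and steroid metabolism at the bottom with 20 of 23 fallen.

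Colonocytes burn bacterial butyrate as their main fuel, and genes of that route were lower in the tumors. Of 17 measured genes of butyrate uptake, fatty acid oxidation and ketogenesis, 16 fell and none rose (median -0.83). Slc5a8, the sodium-coupled butyrate transporter, ran from 8.73 to 10.39 in tumors (median 9.54) and from 11.80 to 12.17 in untreated colon (median 12), and fell by 2.49 ± 0.15 (adjusted p = 1.13e-21). The groups did not overlap. The monocarboxylate transporter Slc16a1 fell by 1.64 ± 0.085, the thiolase Acaa2 by 1.13 ± 0.088 and the carnitine transferase Cpt1a by 1.07 ± 0.073. All 15 measured respiratory chain genes fell, none by 2-fold (median -0.44), and 9 of them fell with the smooth muscle covariate. Glycolysis genes moved both ways, with 4 of 14 risen and 5 fallen (median 0.03): the lactate exporter Slc16a3 rose by 1.90 ± 0.12 and the regulator Pfkfb3 by 1.13 ± 0.12, while Pfkm, the muscle-type phosphofructokinase, fell by 1.29 ± 0.095 and the hexokinase Hk1 by 0.81 ± 0.056. With the muscle covariate, 1 glycolysis gene rose and 3 fell.

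In the insulin and IGF pathway, 7 of 22 measured genes rose and 10 fell, with a median of -0.07. Among ligands, Igf1 ran from 8.49 to 9.30 in tumors (median 8.75) and from 6.83 to 7.50 in untreated colon (median 7.10). It rose by 1.68 ± 0.12, 3.19-fold (adjusted p = 6.64e-18), with no overlap, whereas Igf2 fell by 0.21 ± 0.091. Among receptors, Igf1r ran from 7.61 to 8.38 in tumors and from 7.59 to 8.16 in untreated colon, overlapping ranges with a change of 0.12 ± 0.095 (adjusted p = 0.311 in limma, and 0.214 unadjusted in an exact permutation test). Of the adaptors, Irs1 had a change of -0.04 ± 0.09 (adjusted p = 0.783), and Irs2 ran from 7.01 to 7.56 in the tumors (median 7.36) against 7.85 to 9.09 in untreated colon (median 8.27). All 9 tumors lay below all untreated samples for Irs2, which fell by 1.0 ± 0.14 (adjusted p = 1.58e-08), and its exact permutation p of 2.17e-05 is the smallest that these group sizes can give. The binding proteins that hold IGFs in tissue split: Igfbp4 rose by 1.19 ± 0.11, Igfbp5 by 1.10 ± 0.16 and Igfbp3 by 0.55 ± 0.20, while Igfbp6 fell by 1.70 ± 0.15 and Igfbp2 by 1.28 ± 0.19. Igfbp3 did not pass without the 2 arrays (0.44, adjusted p = 0.0817). Downstream, the kinases Akt2 and Akt1 rose by 0.42 and 0.36, the phosphatase Ptpn1 by 0.46, and Foxo3 fell by 0.74 ± 0.066, Grb10, an adaptor that restrains the receptor, by 0.58 ± 0.11, and Foxo1 and the regulatory subunit Pik3r1 by 0.46 each. After adjustment for the muscle mean, 3 genes of the group rose (Igf1, Igfbp4 and Igfbp5) and 1 fell (Foxo3), and the change in Irs2 was -0.37 (adjusted p = 0.527).

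Inflammatory signals were high in the tumors. Of 22 measured cytokines and chemokines, 18 rose and none fell, with a median of 1.25. Il1b, a cytokine of activated myeloid cells, ran from 10.26 to 11.59 in tumors (median 11.21) and from 5.91 to 7.71 in untreated colon (median 6.85), and rose by 4.26 ± 0.34 (adjusted p = 2.77e-16). Il23a, a subunit of interleukin-23, which sustains interleukin-17 responses, ran from 7.44 to 8.56 (median 7.97) against 4.56 to 5.47 (median 4.96), and rose by 3.08 ± 0.11 (adjusted p = 1.65e-31). Neither gene overlapped between the groups. The neutrophil attractants Cxcl3 and Cxcl2 rose by 3.93 ± 0.44 and 2.85 ± 0.24, Il1a by 3.74 ± 0.23, Il11 by 2.39 ± 0.26 and Tnf by 2.32 ± 0.15. Il17a rose by 0.51 ± 0.11, whereas Il22, Ifng and Il10, whose probe sets had low values in both groups, did not pass (changes of -0.07, -0.01 and 0.15).

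Genes that epithelium and stroma switch on under cytokines, and prostaglandin enzymes, rose in 12 of 15 measured cases and fell in 2 (median 1.67). Lcn2 (lipocalin-2), an iron-sequestering defence protein, ran from 11.13 to 11.68 in the tumors (median 11.40) and from 6.85 to 7.60 in untreated colon (median 7.25), and rose by 4.14 ± 0.23 without overlap. The chemokine Cxcl5 rose by 4.39 ± 0.37, the nitric oxide synthase Nos2 by 2.66 ± 0.33 and Ptgs2 (COX-2), which makes prostaglandin precursors, by 1.85 ± 0.26. The 2 falls were Hpgd, the enzyme that degrades prostaglandins (-1.92 ± 0.14), and Pigr, the receptor that carries IgA into the lumen (-0.77 ± 0.065). Saa3, an acute-phase protein, was among the 12 largest rises, at 9.76 to 11.35 in tumors against 5.16 to 6.63 (4.85 ± 0.40). After adjustment for the muscle mean, 9 cytokines and 5 genes of this group rose.

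Markers of infiltrating cells differed by cell type. Neutrophil genes rose in 12 of 13 cases (median 2.05), with Retnlg at 3.96 ± 0.42 and the chemokine receptor Cxcr2 at 2.56 ± 0.31, and the mean of the list ran from 7.04 to 8.55 in tumors against 5.48 to 5.87. The neutrophil surface gene Ly6g fell by 0.73 ± 0.18, against the others. Mast cell genes rose in 9 of 10 cases (median 1.58), led by the mucosal chymases Mcpt1, at 8.05 to 11.41 (median 9.84) against 4.01 to 5.70 (median 4.75), and Mcpt2, at 7.12 to 10.47 against 3.89 to 4.57. Both stood among the 12 largest rises of all genes, with changes of 5.00 ± 0.39 and 4.57 ± 0.36, and the carboxypeptidase Cpa3 rose by 3.09 ± 0.26. The mast cell list varied widely between tumors, from 6.43 to 8.22 against 5.21 to 5.49 in untreated colon. Kit, the stem cell factor receptor of mast cells and of the pacemaker cells in the gut wall, fell by 1.11 ± 0.11.

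Of 14 macrophage genes, 11 rose and 2 fell (median 0.66), with Lyz2 at 1.15 ± 0.10 and the endotoxin co-receptor Cd14 at 1.09 ± 0.12 among the rises, and the resident macrophage receptors Mertk (-1.16 ± 0.098) and Cd163 (-1.09 ± 0.11) as the falls. T cell genes rose in 7 of 14 cases and fell in none (median 0.40), with the receptor chain Cd3g at 1.27 ± 0.20, granzyme Gzmb at 1.16 ± 0.22 and the regulatory T cell factor Foxp3 at 0.82 ± 0.13. Of 14 B and plasma cell genes, 1 rose and 1 fell (median -0.09), and the B cell marker Ms4a1 had a change of 0.01 (adjusted p = 0.99). Type I interferon response genes rose in 7 of 13 cases (median 0.47), with the protease Usp18, which restrains interferon signalling, at 2.27 ± 0.21, and interferon-gamma response and antigen presentation genes in 5 of 13 (median 0.34). In the fit with the muscle covariate, 3 neutrophil, 1 macrophage, 0 T cell, 1 B and plasma cell, 1 type I interferon and 0 interferon-gamma genes rose, while 7 mast cell genes did. Mertk, Cd163 and Kit were the falls, and Ly6g did not pass (-0.15, adjusted p = 0.888).

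**Figure D4:**
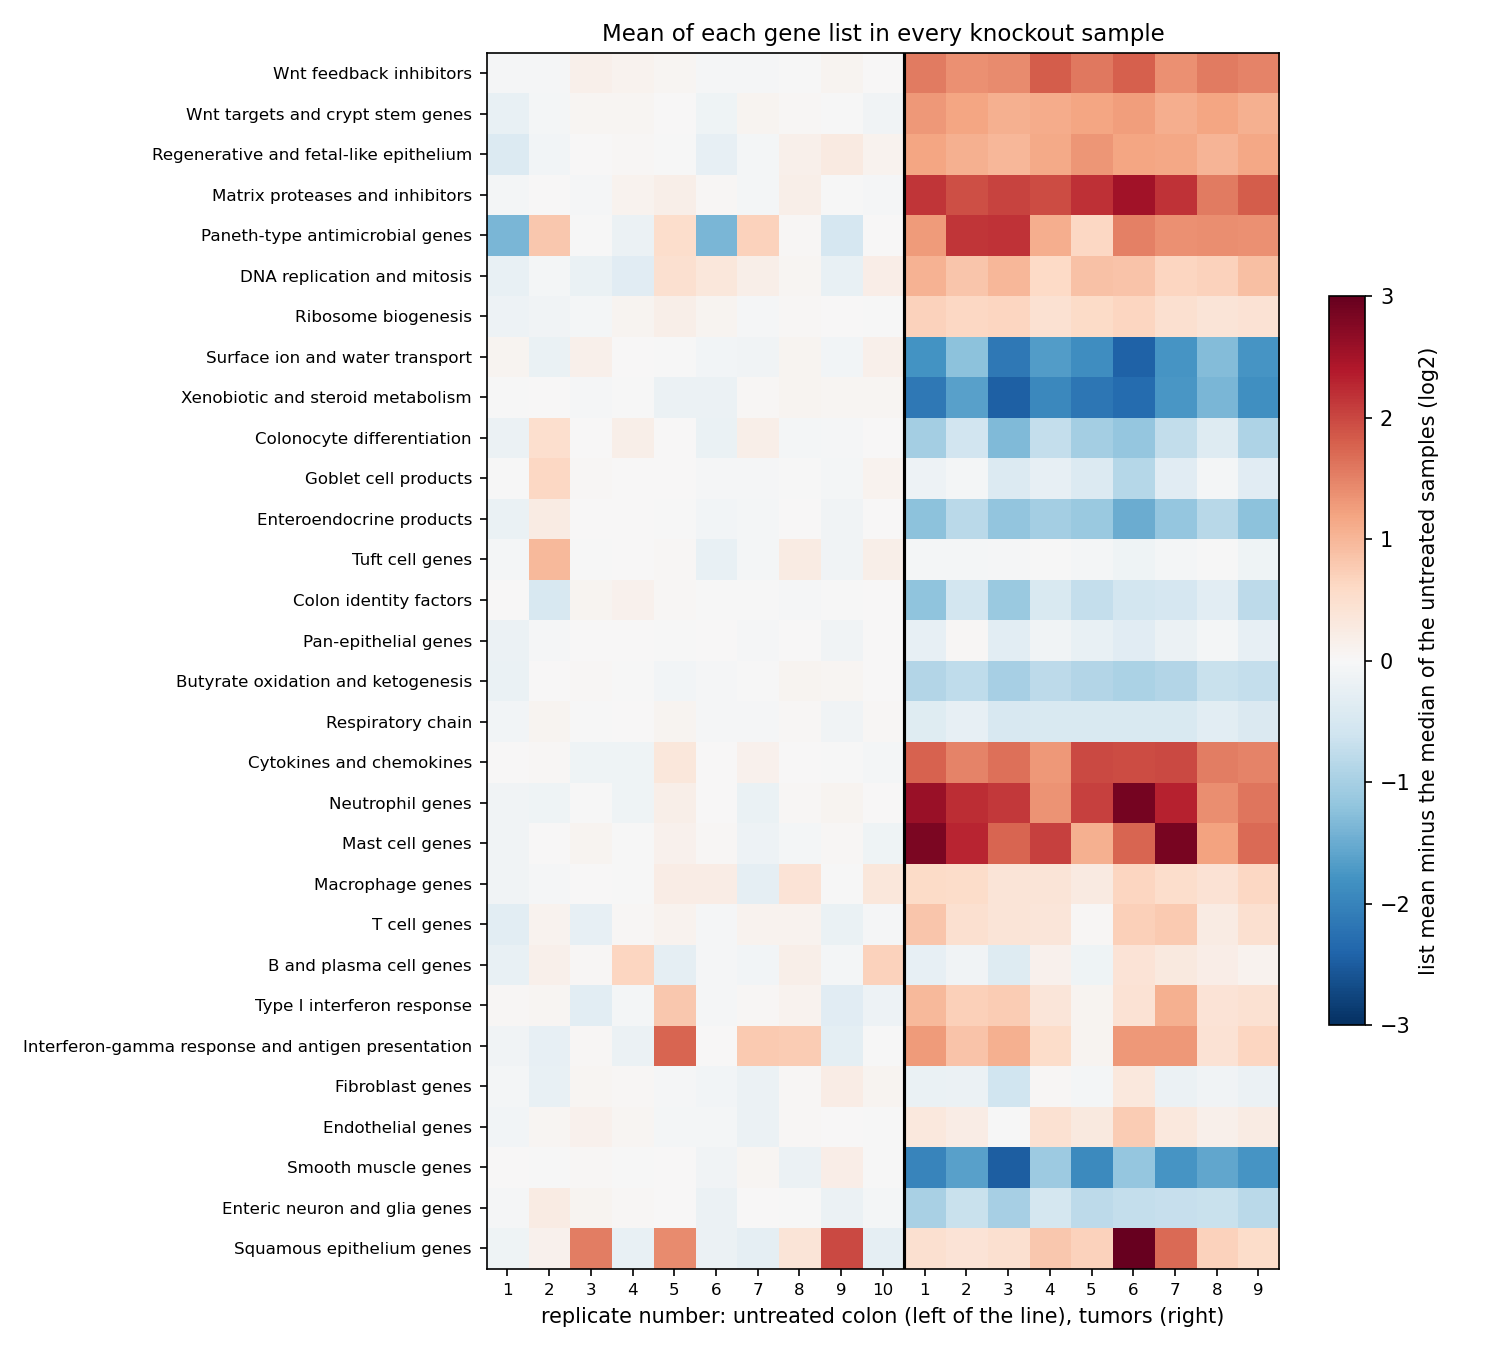
Each row is 1 of 30 gene lists and each column 1 knockout array, untreated colon left of the line and tumors right of it, and colour gives the mean log2 level of the list minus the median of the untreated samples. Wnt and ribosome lists look alike in all 9 tumors, while mast cell, neutrophil, smooth muscle and squamous lists differ between tumors, with the squamous list highest in tumor replicate 6 (8.71).

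Muscle and nerve genes were low in the tumors. All 14 smooth muscle genes fell, 13 of them at least 2-fold, with a median of -1.70. Myh11, the myosin of smooth muscle, ran from 9.33 to 11.38 in tumors (median 10.43) and from 12.28 to 12.61 in untreated colon (median 12.47), and fell by 2.03 ± 0.16 (adjusted p = 4.31e-16). The groups did not overlap. The filament protein Synm fell by 2.45 ± 0.17, and Acta2, an actin also made by myofibroblasts, by 0.90 ± 0.07. Enteric neuron and glia genes fell in 11 of 12 cases and rose in 1 (median -0.64), with the synaptic protein Snap25 at -2.38 ± 0.15 and the neuropeptide Vip at -1.61 ± 0.16, and the receptor Ret as the rise (0.56 ± 0.13).

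Fibroblast genes moved both ways, with 6 of 16 risen and 4 fallen (median -0.03): collagen Col1a1 rose by 0.60 ± 0.12, while the matrix proteins Lum and Postn fell by 1.21 ± 0.20 and 1.10 ± 0.12. Of 12 endothelial genes, 3 rose and 4 fell (median -0.05). Pecam1, found on all endothelial cells, did not pass (0.06, adjusted p = 0.662). Lyve1, a lymphatic marker, fell by 1.08 ± 0.13, whereas Prox1, the other lymphatic gene in that list, rose as given above. In which cells Prox1 rose was not tested. Squamous epithelium genes, which mark the anal and skin lining rather than the colon, rose in 3 of 16 cases. Their mean ran from 5.94 to 8.71 in tumors and from 5.25 to 7.51 in untreated colon, overlapping ranges in which untreated replicates 3, 5 and 9 stood at 7.06, 6.94 and 7.51. After adjustment for the muscle mean, 4 neuron and glia genes and 0 fibroblast and endothelial genes fell, 7 squamous genes rose, and Ret did not pass (0.77, adjusted p = 0.0832). Only 2 smooth muscle genes fell in that fit, which is no finding about them, since the covariate is the mean of these same genes.

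Colon of knockout mice that had received AOM and DSS was measured as well, and its arrays are set beside the tumors for the same genes. Both this comparison and the main comparison use the same untreated arrays, so values are given side by side. Tumors and AOM and DSS colon were treated as independent samples, though some may come from the same mice. Against untreated colon, 6692 genes passed (30.2%), 16.0% higher and 14.2% lower, with 344 rises (1.55%) and 34 falls (0.153%) of at least 2-fold. Against AOM and DSS colon, the tumors differed in 9511 genes (42.9%), 21.5% higher and 21.4% lower, with 382 rises (1.72%) and 723 falls (3.26%) of at least 2-fold. Wnt negative regulators rose in 5 and fell in 5 of 16 cases in AOM and DSS colon (median 0.08), and rose in 10 and fell in 5 in tumors against that colon (median 1.35). Notum had a change of 0.07 in AOM and DSS colon (adjusted p = 0.668) and rose by 5.07 in tumors above it. Axin2, Rnf43, Znrf3 and Lgr5 fell in AOM and DSS colon, by 0.27, 0.38, 0.32 and 0.41, and were 2.58, 2.21, 1.75 and 3.15 higher in the tumors than there.

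Several inflammatory genes, and other groups that rose in the tumors, were high in AOM and DSS colon too. Neutrophil genes rose in 12 of 13 cases there (median 1.70), and in tumors against that colon 5 rose and 1 fell. Cytokines and chemokines rose in 15 of 22 cases, and then 12 rose and 0 fell. Matrix proteases and inhibitors rose in 10 of 14, and then 8 rose and 3 fell. Genes of regenerating epithelium rose in 8 of 12, and then 8 rose. Mast cell genes rose in 8 of 10 and fell in 1, and then again 8 rose and 1 fell. Il1b rose by 3.29 in AOM and DSS colon and was 0.97 higher again in tumors (adjusted p = 0.0169). Saa3 rose by 3.99 and Cxcl5 by 3.59, and the tumors did not pass against AOM and DSS colon for either (0.86 and 0.81, adjusted p of 0.0749 and 0.0724). Igf1 rose by 1.34 in AOM and DSS colon and was 0.33 higher in tumors (adjusted p = 0.0207). Il23a had a change of 0.14 in AOM and DSS colon (adjusted p = 0.339) and a further 2.93 in tumors, and Mmp12 likewise had -0.05 and then 3.47. T cell genes rose in 13 of 14 cases in AOM and DSS colon and fell in 8 in tumors against it, and fibroblast genes rose in 12 of 16 and then fell in 11. B and plasma cell genes rose in 10 of 14 cases in AOM and DSS colon (median 1.36) and fell in 11 of 14 in tumors against it (median -1.51). Squamous genes rose in 13 of 16 cases (median 1.96) and fell in 8 in tumors against that colon. Type I interferon genes rose in 12 of 13 cases (median 1.09), and in tumors against that colon 8 fell and 1 rose. Interferon-gamma response genes rose in 12 of 13 cases (median 0.79), and then 7 fell and 0 rose. Macrophage genes rose in 13 of 14 cases (median 0.84), and then 7 fell and 2 rose. The B cell marker Ms4a1 rose by 2.81 in AOM and DSS colon and fell by 2.80 from there to the tumors. Transport genes fell in 9 of 22 cases and rose in 3 in AOM and DSS colon (median -0.27) and fell in 20 of 22 in tumors against it (median -1.37). Slc26a3 had a change of -0.13 in AOM and DSS colon (adjusted p = 0.765) and fell by 4.21 in tumors from there. Smooth muscle genes fell in 2 of 14 cases in AOM and DSS colon (median -0.16) and in all 14 in tumors against it. Genes of butyrate use and ketogenesis already fell in 14 of 17 cases in AOM and DSS colon (median -0.36). In tumors against it, 12 fell and 1 rose (median -0.30). Respiratory chain genes fell in 14 of 15 cases (median -0.27), and 11 fell in tumors against that colon (median -0.20). Tuft cell genes fell in 7 of 11 cases in AOM and DSS colon and rose in 0 (median -0.27). In tumors against it, 2 of them rose and 2 fell (median -0.02).

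The same tumor comparison in fl/fl littermates, which shares no array with the knockout comparison, called 10063 genes (45.4%), 22.9% higher and 22.5% lower, with 671 rises (3.03%) and 676 falls (3.05%) of at least 2-fold. Over all 22180 genes, the tumor change in knockout and in fl/fl mice correlated across genes (Pearson r = 0.962, Spearman rho = 0.878). Genes are not independent replicates, so no p is given. Both genotypes called 4573 genes higher and 4130 lower, which is 83.0% of the calls in knockout mice and 86.5% of those in fl/fl mice. Of the 1421 genes with 2-fold changes in knockout tumors, 1413 were called the same way in fl/fl tumors. The other 8 were Acta1, Apol10a, Clca4a, Cyp2c65, Enpp3, Fabp2, Il6 and Tm4sf5 (most of them chosen for naming after their values were seen), and of these Clca4a differed in sign as well, at 0.03 in fl/fl mice. Wif1 rose by 5.78, Notum by 5.04, Lgr5 by 2.6 and Mmp7 by 6.26 in fl/fl tumors, and Cyp2c55 changed by -4.70, Slc26a3 by -3.96 and Insl5 by -3.15.

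**Figure D5:**
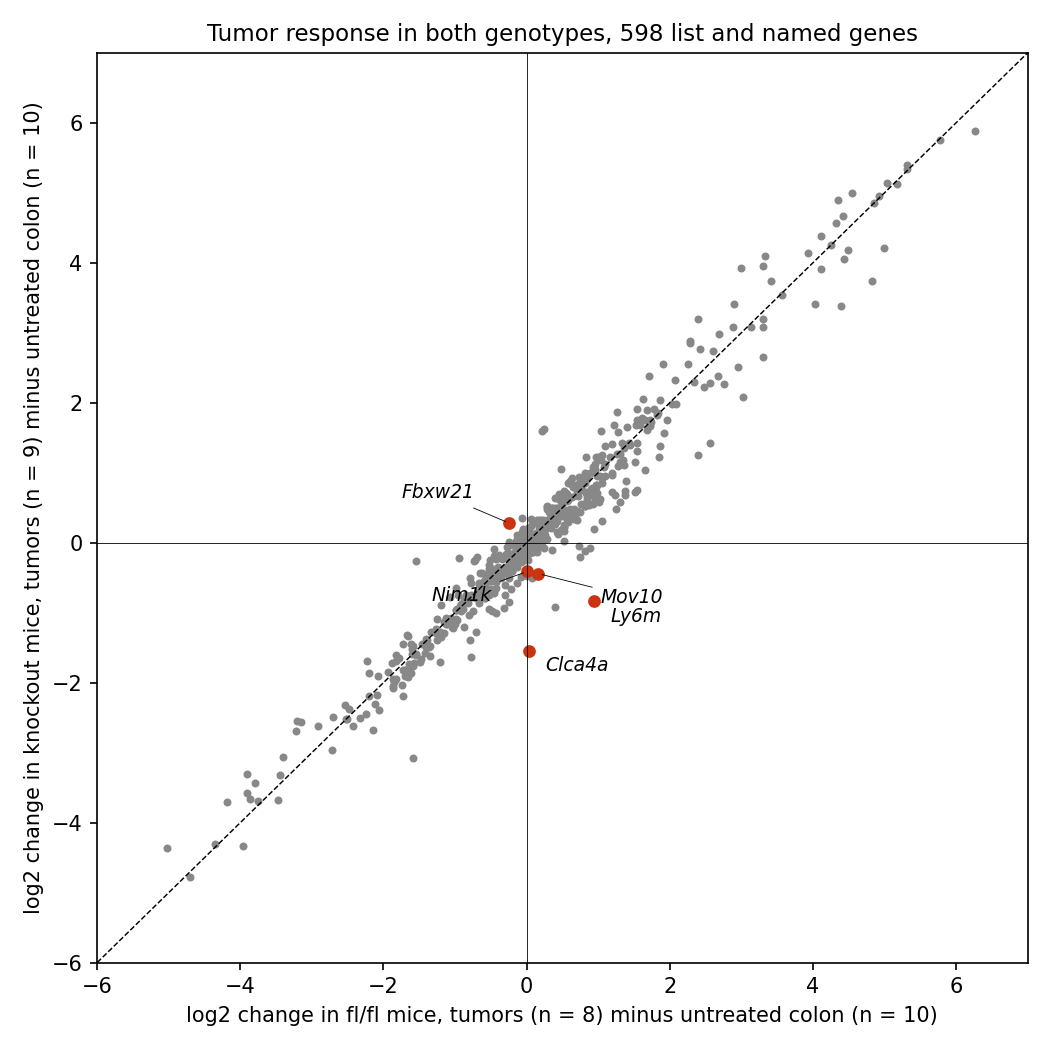
Each point is 1 of 598 genes (list members and named genes), with the tumor minus untreated log2 change in fl/fl mice (n = 8 and 10) on the x axis and in knockout mice (n = 9 and 10) on the y axis, and the dashed line marks equal changes. Most points lie near the line, and the 5 genes with the smallest unadjusted p for the difference, in red, lie off it, with Clca4a at -1.54 in knockout and 0.03 in fl/fl mice.

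A direct test of whether the tumor change differs between genotypes found no gene past the threshold (0.0% of 22180). In limma, 983 of the 22180 genes had an unadjusted p under 0.05. That share is below the 0.05 expected where no gene differs. The 5 genes with the smallest p were Ly6m, Clca4a, Nim1k, Mov10 and Fbxw21. Ly6m, a member of the Ly6 surface protein family, fell by 0.83 ± 0.25 in knockout tumors, from 9.82 to 11.17 in untreated colon to 8.70 to 10.95 in tumors, and rose by 0.94 ± 0.26 in fl/fl tumors. The difference was -1.77 ± 0.36 with an adjusted p of 0.191. Clca4a, a member of the Clca family of secreted proteins, ran from 7.91 to 10.72 in knockout tumors (median 9.53) and from 10.61 to 11.43 in untreated knockout colon (median 10.98), with 8 of 9 tumors below all untreated samples. It fell by 1.54 ± 0.23 in knockout tumors and changed by 0.03 ± 0.24 in fl/fl tumors (adjusted p = 0.943), a difference of -1.57 ± 0.34 with an adjusted p of 0.214. These values moved past the threshold when single tumors were left out: Ly6m without replicate 4 (adjusted p = 0.0497), and Ly6m and Clca4a without replicate 8 (adjusted p = 0.0192 for each), while leaving out replicate 6 brought 1 predicted gene model, Gm17250, past it (0.0361). Nim1k, Mov10 and Fbxw21 had changes of -0.41, -0.44 and 0.28 in knockout and of 0.01, 0.16 and -0.24 in fl/fl tumors. The difference in the Insr change was 0.28 ± 0.15 (adjusted p = 0.999).

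The tumors also differed among themselves. The 6 called genes with the largest standard deviation among the 9 tumors were Car3, Cyp2f2, Zg16, Enpp3, Hao2 and Cyp2c55, and all 6 fell. Car3, a carbonic anhydrase of fat and muscle, ran from 5.24 to 9.91 in tumors (median 6.04) and from 6.58 to 11.87 in untreated colon (median 10.09), overlapping ranges with a change of -3.08 ± 0.62 (adjusted p = 2.42e-05). Zg16, a lectin of goblet cell mucus, ran from 8.48 to 12.23 in tumors (median 11.44) and from 12.63 to 12.94 in untreated colon (median 12.83), so that the untreated samples were tightly grouped and the tumors spread. It changed by -1.52 ± 0.23. After adjustment for the muscle mean, the changes of Car3, Cyp2f2 and Enpp3 turned to 0.95, 0.82 and 0.11, none past the threshold.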

How the data were processed

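The authors deposited log2 levels for each probe set on each array. Per the submitters' processing notes these are RMA values (the version is not given in the sources used here). Per the labels' protocols, 250 ng of RNA was labelled with the WT Plus kit for Affymetrix whole-transcript arrays. Of 41345 probe sets, 23521 carry 1 gene symbol, 1814 carry several and 16010 are unnamed in the platform's table. For the 1082 genes with several probe sets the brightest was used. The number of arrays limits the precision.

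All 57 arrays entered 1 model of 6 groups in limma 3.58.1 (R 4.3.3, lmFit and eBayes), with two-sided tests and Benjamini-Hochberg adjustment over 22180 genes. Calls used an adjusted p under 0.05, and a log2 change of at least 1 for 2-fold. Tests were checked on simulated arrays. The receptors Insr and Igf1r and the adaptors Irs1 and Irs2 were also compared by exact permutation. Of 645 entries in 39 gene lists, 597 were measured.

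The members and lists were chosen with earlier results of these data known, so list counts are descriptions. Named were the 4 receptor and adaptor genes, the 12 largest rises and 12 largest falls, the 6 called genes with the largest standard deviation among tumors, the 5 smallest interaction p-values and list members by role. Predicted models and small RNA genes were counted and not named, unless a count was small. Alternatives covered array scaling, dim genes (mean under 5), probe set averaging, eBayes settings, array weights, the fit on the compared groups, a replicate block, 2 covariates and each array left out.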

Additional observations from a re-analysis of the deposited data

Results flagged for a closer look

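In 134 groups of values (28 named genes and 39 list means, in tumors and in untreated colon), 21 had an array at the end whose gap to its nearest neighbour was large against the range of the group by Dixon's criterion. Chance gives about 1 in 20 such groups, and a few arrays account for them, so the values are not independent of each other.

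Tumor replicate 6 was the lowest of the 9 tumors for 4 named genes that fell. It stood at 5.68 for Slc26a3 (next 8.00), 6.51 for Car4 (next 8.10), 4.36 for Hao2 (next 7.16) and 7.13 for Tgm3 (next 9.20). Its mean of the goblet cell products was 9.44 (next 9.88), and its mean of the squamous epithelium genes was the highest at 8.71 (next 7.22).

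Untreated replicate 2 stood apart among the untreated samples. It was lowest for Slc37a2 at 9.71 (next 11.31), Cyp2d12 at 8.11 (next 8.99), Sycn at 12.48 (next 12.87) and Tgm3 at 11.80 (next 12.73), and highest for Hsd3b3 at 10.24 (next 9.13). Its list means were highest for colonocyte differentiation (10.98, next 10.65), goblet cell products (10.91, next 10.40), enteroendocrine products (8.14, next 7.91), tuft cell genes (7.05, next 6.33) and pancreatic-type lipases (7.14, next 6.02), and lowest for colon identity factors (8.36, next 8.82).

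Untreated replicate 5 had the highest list means for type I interferon response (8.07, next 7.36), interferon-gamma response and antigen presentation (9.67, next 8.72), cytokines and chemokines (5.77, next 5.55) and glycolysis (10.01, next 9.87).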

How the results depend on the processing

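Over the alternatives that kept the tissue covariates out, the number of changed genes ran from 9931 to 10721. Leaving out arrays gave 9931 to 10495 changed genes, 5015 to 5247 higher, 4853 to 5248 lower, 638 to 693 rises and 713 to 786 falls of at least 2-fold, and 0 to 2 genes for the genotype difference (1 without tumor replicate 4, 1 without replicate 6, 2 without replicate 8). The counts 9931 and 4853 came from leaving out tumor replicate 6 and untreated replicate 2 together, an alternative chosen after seeing the data.

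With the smooth muscle mean as a covariate, 2547 genes passed, 1349 higher and 1198 lower, with 373 falls of at least 2-fold. That mean does not overlap between the groups, and the standard errors grew. The receptor and adaptor genes, the largest rises and falls, the interaction genes and the most variable genes were followed singly. Of these, Fbxw21 (-0.11), Car3 (0.95), Enpp3 (0.11) and Cyp2f2 (0.82) turned sign, none past the threshold. Insr, Irs2, Ly6m and Mov10 kept their sign and lost their calls. Over all called genes that were listed or named, 245 of 462 lost their call. In that fit 7 genes were called in the opposite direction, among them Sfrp4 (from -0.72 to 1.72, adjusted p = 0.00788). The squamous mean as a covariate left 1 gene for the genotype difference, Gsta4 (-0.71, adjusted p = 0.0107), named after its value was seen.

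Replicate numbers were compared between tumors and untreated colon, which came from different mice and so could not pair by mouse. Over 9 numbers, the correlation of their deviations from the group means ran from -0.188 to 0.276. It was above 0.1 for 1 number, and 1 tumor matched its own number best. Pairing of tumors with AOM and DSS colon by number was not tested. With the replicate block, 10721 genes passed, and the genotype difference stayed at 0 genes.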

Other observations

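Other signalling families changed member by member. Of 14 ephrins and their receptors, which position cells along the crypt, 6 rose and 6 fell. Ephb6 rose by 1.42 ± 0.14, Efna4 by 1.22 ± 0.11 and Ephb3, a Wnt-induced receptor, by 0.44 ± 0.10, while Epha7 fell by 1.22 ± 0.14. After adjustment for the muscle mean, 3 rose and 2 fell.

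In the BMP pathway, whose signals favour differentiation over stem cell growth, 9 of 17 measured genes rose and 4 fell (median 0.26). The ligand Bmp7 ran from 9.85 to 10.53 in tumors (median 10.21) and from 7.99 to 8.47 in untreated colon (median 8.20), without overlap, and rose by 1.98 ± 0.11. Bmp3 and Bmp2 fell by 2.05 ± 0.12 and 1.33 ± 0.13, and the extracellular antagonist Chrdl1 fell by 2.30 ± 0.15. Of 13 ErbB ligands and receptors, 5 rose and 4 fell: the ligand Nrg1 rose by 1.39 ± 0.16 and Egf fell by 0.72 ± 0.092. In the fit with the muscle covariate, 5 BMP genes rose and 1 fell, and 0 ErbB genes rose and 2 fell.

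Cell cycle inhibitors and p53 targets rose in 5 of 14 cases and fell in 3, with Cdkn2a up by 0.46 ± 0.073 and Cdkn1a (p21) down by 0.47 on the log2 scale. Sterol synthesis genes rose in 5 of 12 cases and fell in 2, none by 2-fold. After adjustment for the muscle mean, 2 cell cycle and 0 sterol genes rose, and 0 and 1 fell.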
